A study of Homo sapiens with 4 samples.

Results

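Diphthamide is a modified histidine of elongation factor 2, and the enzymes that build it were followed together with their substrate. The genes were taken by symbol from the deposited table: DPH1, DPH2, DPH3, DPH5, DPH6, DPH7 and EEF2. All 7 were found among 60664 genes, and all 7 were among the 16544 genes tested. DPH6 had been singled out, and the other genes chosen around it, with its values in this same comparison already known. The differences of the 7 genes are therefore given as a description, without p-values.

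Eukaryotic elongation factor 2, encoded by EEF2, moves the ribosome along the mRNA after each peptide bond. DPH1 and DPH2 form the iron-sulfur enzyme that starts diphthamide by transferring a carbon chain from S-adenosylmethionine to the histidine, with DPH3 as its electron donor. DPH5 then methylates the intermediate, DPH7 removes a methyl group again, and DPH6 is the ligase that adds the final amide with ammonia and ATP. Diphtheria toxin and Pseudomonas exotoxin A block translation by ADP-ribosylating the finished residue, so cells that cannot make it resist them.

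All libraries came from Hs578T, a mesenchymal, triple-negative human breast cancer cell line. The 2 libraries of the empty group came from Hs578T cells labelled as an empty control, a group that the deposited table calls FLAG. The 2 libraries of the other group came from Hs578T cells overexpressing TFCP2L1, a CP2-family transcription factor. The labels name no vector, promoter, clone, time or batch, nor whether separate cultures were used. The measured spread may thus be technical, and a batch that coincides with the group cannot be told apart from it. Library totals ran from 18960674 to 26355502 estimated counts. TFCP2L1 itself was counted 12 and 19 times in empty cells and 4623 and 5069 times in overexpressing cells. VIM, a mesenchymal marker, stood at 3643 to 4563 TPM in the 4 libraries. Of the other mesenchymal markers, FN1 was at 1268 to 1574 TPM, CDH2 at 147 to 214, AXL at 136 to 155 and ZEB1 at 9.46 to 15.8. With TFCP2L1, VIM and CDH2 were higher (log2 fold change 0.27 and 0.47), FN1 and ZEB1 lower (-0.32 and -0.54), and AXL did not pass. ESR1, PGR, CDH1 and EPCAM had at most 20 counts in any library. ERBB2 was at 19.55 and 17.2 TPM in empty and 33.4 and 31.5 TPM in overexpressing libraries. Of the markers of other cells, PTPRC, CD3E and ALB had at most 4 counts per library, but PECAM1 was at 12.3 and 8.78 TPM in empty and 3.70 and 3.13 TPM in overexpressing libraries. What this difference in PECAM1 contributes to the results was not tested.

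A pair of sequences shows where the enzymes act and where DPH6 begins. The stretch of the EEF2 coding sequence around the modified histidine (GRCh38, chr19:3977518-3977550, minus strand, exon 13 of 15 of the principal transcript in GENCODE 29) has the histidine codon in capitals. It is codon 715 of 858. The 250 bases before the RefSeq start of DPH6 (GRCh38.p14, chr15:35546166-35546415, minus strand) have in capitals the 29 bases that separate this start from that of DPH6-DT, a noncoding gene read in the opposite direction.
EEF2 histidine codon: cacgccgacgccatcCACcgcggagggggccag
DPH6 upstream: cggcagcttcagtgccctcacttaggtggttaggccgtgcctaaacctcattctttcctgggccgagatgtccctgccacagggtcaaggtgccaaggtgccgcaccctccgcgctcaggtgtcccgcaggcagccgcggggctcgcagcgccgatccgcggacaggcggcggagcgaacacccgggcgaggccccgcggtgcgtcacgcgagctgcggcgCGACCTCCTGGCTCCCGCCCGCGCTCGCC

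The start region of DPH6 is rich in G and C, at 72.0% against a median of 58.0% over the same window of the 35116 promoters in the RefSeq table. It was searched, with 50 bases after the start, for the motif by which CP2-family factors are known, namely CCAG, 6 bases of any kind and CCAG again, on both strands. None of the promoters of the 7 genes held it, against 4.04% of all promoters. A looser form with CNNG in both places, which includes the stricter form, reads the same on both strands and may overlap itself, occurred 6 times in the DPH6 window and 2 to 5 times in those of the other genes. At least 1 such match was present in 74.0% of all promoters.

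DPH6 (ENSG00000134146; GRCh38, chromosome 15, 35217345 to 35546193, minus strand, protein-coding) was by far the gene of the pathway with the greatest difference. Empty cells gave 9646 and 7584 estimated counts, and overexpressing cells 985 and 1021. Scaled to library size, in CPM (counts scaled by TMM to a common library size), these were 414 and 401 CPM against 41.3 and 39.0 CPM. Each empty library was about an order of magnitude above each overexpressing library, and libraries of a group lay close together. The group means were 407.5 ± 9.35 CPM (SD, n = 2) and 40.1 ± 1.66 CPM (SD, n = 2). Per unit of depth, DPH6 was 10.2-fold lower with TFCP2L1 (exact 95% interval 9.72 to 10.7, for counting error alone). In bulk RNA, fewer cells of a kind and less RNA per cell cannot be told apart. On the log2 scale the fold change was -3.34 (SE 0.07, edgeR). Of all tested genes, 254 had a fold change as low or lower, which is 1.54%. The authors' deposited table gives -3.33 for the log2 fold change of DPH6.

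**Figure D1:**
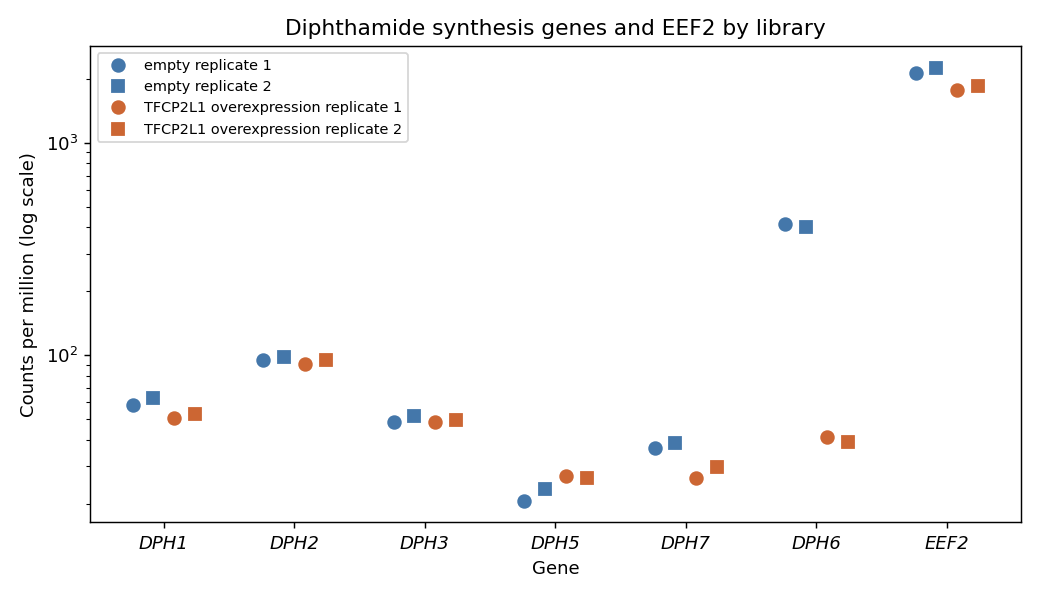
CPM (log axis) of the 7 genes in each of the 4 libraries, 2 empty in blue and 2 overexpressing TFCP2L1 in orange. The DPH6 points lie at 414 and 401 CPM in empty libraries and at 41.3 and 39.0 CPM in overexpressing ones, while the points of each other gene lie close to each other.

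Of the 7 genes, 5 passed an adjusted p under 0.05 in the fit across all genes, 4 lower and 1 higher with TFCP2L1. Over all tested genes the share that passed was 47.5%, with 23.5% higher and 23.9% lower. The CPM of the groups did not overlap for 6 of the 7, with 5 lower and 1 higher, against 73.7% of all tested genes (37.1% lower and 36.7% higher). Since the genes were chosen on this comparison, nothing is read from these counts. The median log2 fold change of the 7 was -0.23, and it was 0.00 (-0.002) over all tested genes. Without DPH6 the values lay between -0.42 and 0.28.

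Compared per length, in the deposited TPM (transcript abundance scaled by length and depth), DPH6 changed its place among the genes. In empty cells the order was EEF2 at 1040 and 1108 TPM, DPH6 at 118.49 and 118.48 TPM, and DPH2 at 93.6 and 93.9 TPM. DPH1 followed at 34.4 and 35.2 TPM, DPH7 at 33.8 and 32.4 TPM, DPH5 at 28.1 and 31.4 TPM and DPH3 at 20.1 and 21.1 TPM. Both libraries of each gene lay above both of the next gene in this order, though by little between DPH1, DPH7 and DPH5. In overexpressing cells DPH6 stood at 21.9 and 21.6 TPM, next to last, with DPH7 above it at 24.02 and 25.82 TPM and DPH3 below it at 20.2 and 19.8 TPM. Its share of the summed TPM of the 6 DPH genes was 36.1% and 35.6% in empty cells and 9.87% and 10.2% in overexpressing cells. The sum of the 5 others was 210.0 and 213.9 TPM in empty and 199.6 and 191.0 TPM in overexpressing libraries. The TPM of EEF2, the substrate, was 8.78 and 9.35 times that of DPH6 in empty and 40.6 and 42.6 times that of DPH6 in overexpressing libraries. Among all tested genes, 92.6% lay below the TPM of DPH6 in empty cells and 67.1% in overexpressing cells.

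**Figure D2:**
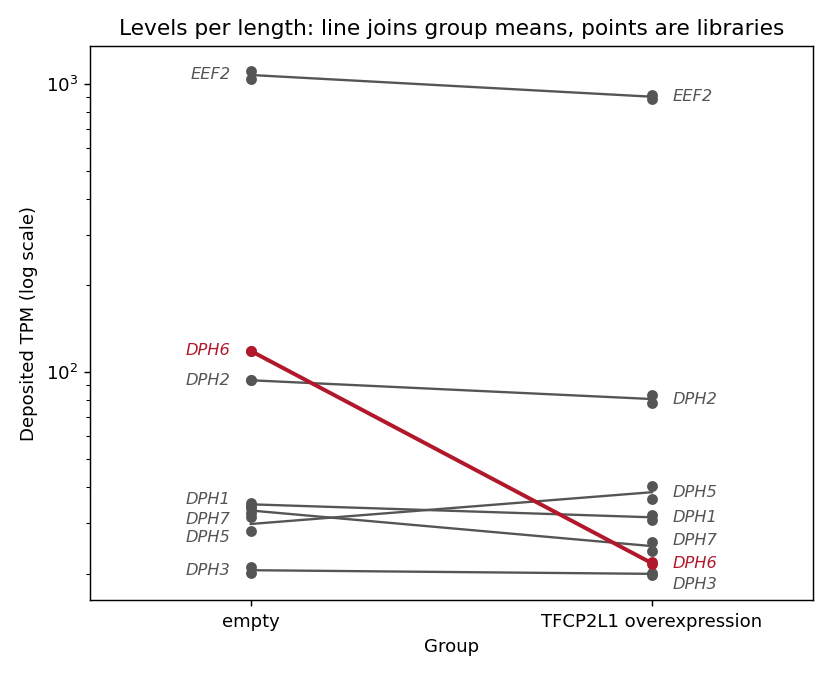
Deposited TPM (log axis) of the 7 genes in the empty and the overexpressing group, with a point for each library and a line between group means. DPH6, in red, crosses from above DPH2 (118.5 TPM) to just above DPH3 (21.7 TPM), while the lines of DPH5 (TPM ratio 1.29) and DPH7 (0.752) slope in opposite directions and those of the other genes slope less.

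The counts and the TPM did not give the same difference for DPH6. Its mean TPM in overexpressing cells was 0.183 of that in empty cells, while for depth-scaled counts this ratio was 0.0982. The number of estimated counts behind each unit of TPM depends on the length that the authors' quantification assigned to the gene's transcripts in that library. This implied length was computed for each library by setting 521 genes with a single GENCODE 29 transcript to their deposited length. For DPH6 it was 5028 and 4856 bases in empty libraries and 2774 and 2502 bases in overexpressing ones, a ratio of 0.533. Both overexpressing libraries were thus below both empty ones, and the deposited length of the gene was 2098 bases. Of 11549 genes with a mean of at least 100 counts, 17 had a shift as low or lower (0.147%), DPH6 included. The median shift was 0.003 on the log2 scale, and the 1% and 99% quantiles were -0.42 and 0.44.

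GENCODE 29 lists 9 DPH6 transcripts, from 465 to 3648 bases. A coding transcript that runs from near the start of the gene is 2099 bases long and lies at 35370882 to 35546168. The longest, also coding, has 3648 bases and ends early, at 35518994 to 35546192, while a noncoding transcript of 3438 bases starts inside the gene and runs to its far end at 35217345. The implied length in empty cells lay above each of them. The sources used here do not give the annotation behind the deposited values, which may hold other transcripts, and transcript-level values were not analysed here. DPH6 counts carried decimals, as estimates that divide reads between transcripts or genes do, and so did those of DPH1, DPH2 and DPH5.

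**Figure D3:**
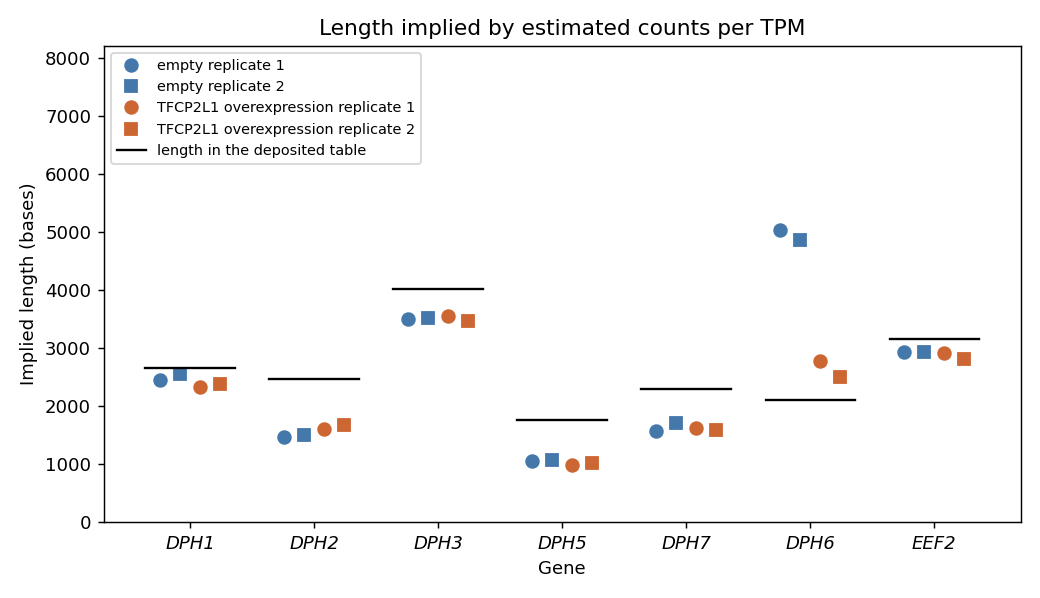
Length in bases implied by the estimated counts per TPM for each gene and library, with the length of the deposited table as a black bar. The DPH6 points fall from 5028 and 4856 bases in empty to 2774 and 2502 bases in overexpressing libraries, and the ratios of the other genes lie between 0.935 and 1.11.

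For the other genes the implied length moved little, with ratios between 0.935 for DPH5 and 1.11 for DPH2. DPH2 went from 1461 and 1506 bases to 1613 and 1675 bases. The groups did not overlap for DPH1, DPH2, DPH5 and EEF2 either, but their differences were small beside that of DPH6. For EEF2 the nearest libraries were at 2924 bases in empty and 2915 bases in overexpressing cells. The share of all compared genes without overlap was not determined, so nothing is read from this.

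The genes of the opening step, which attach the carbon chain, differed least. DPH1 (ENSG00000108963; chromosome 17, 2030110 to 2043430, plus strand) measured 58.4 and 62.7 CPM in empty and 50.6 and 52.8 CPM in overexpressing libraries. It was lower in both overexpressing libraries, with a log2 fold change of -0.23 (SE 0.08). DPH2 (ENSG00000132768; chromosome 1, 43970000 to 43973369, plus strand), the partner of DPH1, measured 95.04 and 98.5 CPM in empty and 91.2 and 94.7 CPM in overexpressing libraries. The groups were separated by less than 1 CPM, and the log2 fold change of -0.06 (SE 0.07) did not pass the threshold. In TPM, where DPH2 stood at 83.1 and 78.3 against 93.6 and 93.9, the separation was wider. The ratio of DPH2 to DPH1, the subunits of 1 enzyme, was 2.72 and 2.67 in empty cells and 2.60 and 2.54 in overexpressing cells by TPM. DPH3 (ENSG00000154813; chromosome 3, 16257978 to 16264972, minus strand), the electron donor, measured 48.7 and 51.6 CPM in empty and 48.8 and 49.4 CPM in overexpressing libraries. Here the groups overlapped, the log2 fold change was -0.03 (SE 0.08), and overexpressing cells had 0.982 of the depth-scaled counts of empty cells (exact 95% interval 0.926 to 1.04). DPH3P1, a processed copy of DPH3, had at most 3.45 counts in any library.

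The methylation steps went in opposite directions. DPH5 (ENSG00000117543; chromosome 1, 100989623 to 101026088, minus strand), the methyltransferase, was the only one of the 7 to be higher with TFCP2L1. It measured 20.7 and 23.5 CPM in empty and 27.1 and 26.6 CPM in overexpressing libraries, a log2 fold change of 0.28 (SE 0.10). Its TPM went from 28.1 and 31.4 to 40.4 and 36.3. DPH7 (ENSG00000148399; chromosome 9, 137554904 to 137578935, minus strand), the esterase that acts after it, measured 36.8 and 38.5 CPM in empty and 26.6 and 29.7 CPM in overexpressing libraries. Both overexpressing libraries were below both empty ones, with a log2 fold change of -0.42 (SE 0.09), the largest of the set after DPH6. The calls of DPH1 and DPH5 were not held under every setting: both were lost with DESeq2, without empty replicate 1 and at an adjusted p under 0.01.

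EEF2 (ENSG00000167658; chromosome 19, 3976056 to 3985469, minus strand), the protein that is modified, measured 2121 and 2257 CPM in empty and 1762 and 1856 CPM in overexpressing libraries. It was lower in both overexpressing libraries, at 0.83 of the depth-scaled counts of empty cells, with a log2 fold change of -0.27 (-0.275; SE 0.06). By TPM it lay above 99.1% of the tested genes in empty cells. The data are RNA levels, and neither eEF2 protein nor its diphthamide was measured.

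DNAJC24, also known as DPH4, is a J-domain protein counted among the pathway genes for its support of the opening step and was not part of the chosen set. Its counts were 613 and 474 in empty cells and 657 and 687 in overexpressing cells, or 25.7 ± 0.89 and 26.9 ± 0.95 CPM (SD, n = 2), and did not pass the test (log2 fold change 0.06, edgeR quasi-likelihood adjusted p = 0.589). In the deposited annotation 9 genes carry the process term for diphthamide synthesis from histidine, of which 6 are the DPH genes above. The other 3 were DNAJC24, AL357079.2, an antisense gene over DPH2 with at most 8.02 counts per library, and an unnamed gene with at most 5.72.

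No gene next to DPH6 on chromosome 15 had a fold change near its own. Of its 10 nearest tested protein-coding neighbours, 6 rose and 4 did not pass, beside 23.5% higher and 47.5% passing in all over the tested genes, with a median log2 fold change of 0.24 and a range of -0.04 to 0.91. The nearest on the lower side, ZNF770, a zinc finger gene 0.239 Mb away between lower ends, was counted 1104 and 980 times in empty cells and 1250 and 1157 times in overexpressing cells (log2 fold change -0.04, SE 0.09, adjusted p = 0.762). The nearest on the higher side, CDIN1, 1.36 Mb away, went from 275 and 279 to 439 and 470 counts (log2 fold change 0.46, SE 0.12, adjusted p = 0.00627). MEIS2, a homeobox transcription factor gene 1.67 Mb away, rose most, from 615 and 536 to 1234 and 1331 counts (log2 fold change 0.91, SE 0.08, adjusted p = 5.77e-07). These adjusted p-values are from the edgeR quasi-likelihood test over all 16544 genes.

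GOLGA8B, AQR, SPRED1 and FAM98B also rose, with log2 fold changes of 0.42, 0.25, 0.28 (0.285) and 0.23. GOLGA8A, ACTC1 and RASGRP1 were at 0.08, 0.07 and 0.16 and did not pass. GOLGA8A and GOLGA8B are near-identical copies, so the split of reads between them is uncertain. Some of these calls were lost when a library was left out. CDIN1 and FAM98B did not pass without empty replicate 1 (0.305 and 0.17), nor AQR without empty replicate 2 (0.20). SPRED1 did not pass without either empty replicate (0.273 and 0.303) or without overexpression replicate 1 (0.181), against 0.285 with all libraries. Over the 437 tested protein-coding genes of chromosome 15 the median log2 fold change was 0.19, and ANPEP and IGDCC4 alone were lower than DPH6, at -4.75 and -4.14. CORO2B, also on chromosome 15, was at -3.339, almost level with DPH6 at -3.344.

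**Figure D4:**
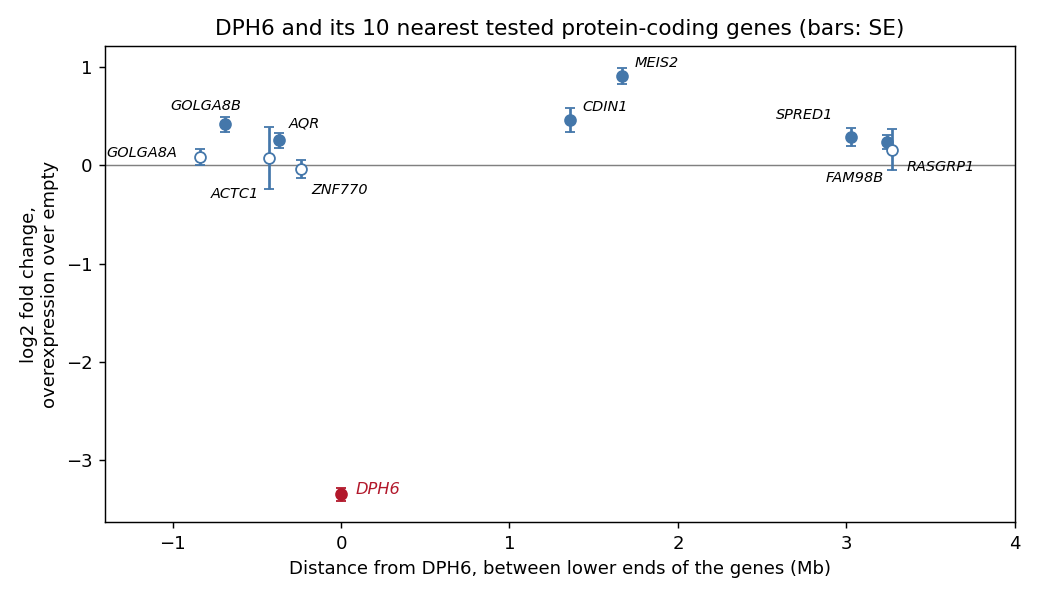
Log2 fold change of overexpression over empty for DPH6 (red) and its 10 nearest tested protein-coding genes, against distance in Mb; bars are standard errors and filled points passed an adjusted p under 0.05. The neighbours lie between -0.04 and 0.91 and DPH6 lies at -3.34.

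DPH6-DT starts 2 bases from DPH6 on the other strand in GENCODE 29. Its counts were 2 and 1 in empty cells and 1 and 1 in overexpressing cells, too few to test. Other genes annotated within DPH6, among them the microRNA gene MIR3942 and processed pseudogenes, had at most 2 counts per library. Whether the counting used strand could not be learnt, so reads of overlapping genes on opposite strands cannot be told apart.

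Around the other genes, OVCA2, a serine hydrolase gene inside the DPH1 locus on the same strand, fell from 24.2 ± 1.64 to 16.3 ± 0.07 CPM (SD, n = 2; log2 fold change -0.57, SE 0.10, edgeR quasi-likelihood adjusted p = 0.000321). Its exons lie in the span of DPH1, so the division of reads between them is uncertain. OXNAD1, which starts 188 bases from DPH3 in the opposite direction, rose from 13.5 ± 0.44 to 18.4 ± 1.71 CPM (SD, n = 2; log2 fold change 0.45, edgeR quasi-likelihood adjusted p = 0.00458). The antisense gene AC093157.1 at the start of DPH5 was at 5.22 ± 0.40 and 4.53 ± 0.12 CPM (SD, n = 2) and did not pass (edgeR quasi-likelihood adjusted p = 0.404).

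Of the neighbours of DPH1, 6 of 10 fell (median -0.47), and of those of DPH7, 6 of 8 fell (median -0.43), and the rest did not pass. For EEF2 3 of 10 had fallen and the rest did not pass. The counts were for DPH3 3 fallen and 1 risen, for DPH2 1 fallen and 3 risen, and for DPH5 4 and 4. These counts were not tested, and over all tested genes 23.5% rose and 23.9% fell. The largest neighbouring fold changes were those of DAZL beside DPH3 (-5.04, on 36 and 27 against 2 and 0 counts), COL11A1 beside DPH5 (-2.20), CREB3L3 beside EEF2 (-1.92) and TOR4A beside DPH7 (-1.67), which all passed. HIC1 beside DPH1 (-1.29) and KLF17 beside DPH2 (1.28) did not pass.

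The genes whose libraries followed DPH6 most closely were looked for among 1574 tested genes with a symbol and a mean CPM within 2-fold of that of DPH6. Likeness was the Euclidean distance over the 4 libraries between log2 CPM centred on each gene's mean. Where libraries of a group lie close together, this distance mainly compares fold changes. DPH6 was singled out with its fold change known, so finding genes that fell was fixed in advance. The 5 nearest were COL5A3, a collagen chain (distance 0.328), DHRS2, a short-chain dehydrogenase (0.432), S100A4, a calcium-binding protein (0.522), SEMA7A, a semaphorin (1.117), and the noncoding LINC02582 (1.135). Depth-scaled counts were 8.13-fold lower for COL5A3, 7.59 for DHRS2, 7.18 for S100A4, 4.71 for SEMA7A and 22.5 for LINC02582, against 10.2 for DPH6. COL5A3 went from 5569 and 4350 to 695 and 751 counts, and DHRS2 from 8829 and 7754 to 1288 and 1303 counts. These genes lie on different chromosomes, other than SEMA7A, which is on chromosome 15 as DPH6 is.

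Genes that supply, use or resemble the pathway were examined in 10 lists with 79 distinct tested genes. Of these 14 rose and 22 fell, 45.6% in all beside the 47.5% of all tested genes, and their median log2 fold change was -0.02 (-0.019). No list had a gene with a change near that of DPH6. All adjusted p-values below are from edgeR's quasi-likelihood test over all 16544 genes, and values are means ± SD of 2 libraries.

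**Figure D5:**
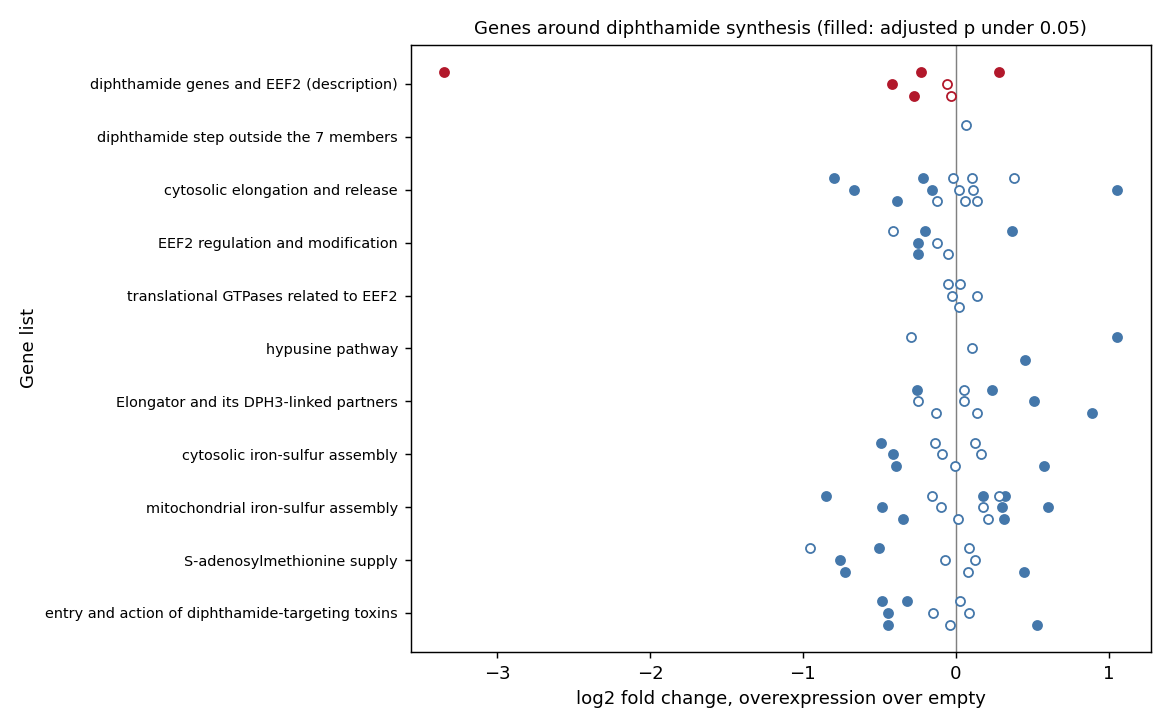
Log2 fold change of overexpression over empty for the 7 genes (red) and for the tested genes of the 10 lists (blue), with a point for each gene; filled points passed an adjusted p under 0.05. DPH6 lies alone at -3.34, and the listed genes spread between -0.95 (MAT1A) and 1.05 (EIF5A2).

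Among regulators of eEF2, of 7 tested genes 1 rose and 3 fell, with a median of -0.20. EEF2K, the kinase that inactivates eEF2 by phosphorylation, fell from 37.2 ± 3.30 to 31.3 ± 1.01 CPM (log2 fold change -0.25, adjusted p = 0.0351). Its call was lost without empty replicate 2 (-0.151) or overexpression replicate 2 (-0.207), with DESeq2, with no filter and on log2(TPM + 0.1). PDPK1, an upstream kinase, fell from 74.5 ± 1.35 to 62.9 ± 7.25 CPM (adjusted p = 0.0231). It lost its call without either empty replicate or without overexpression replicate 2 (-0.127), with DESeq2 and on log2(TPM + 0.1). MTOR, whose complex restrains EEF2K through S6 kinase, rose from 111 ± 0.69 to 144 ± 10.3 CPM (adjusted p = 0.000347). RPS6KB1, an S6 kinase gene, fell from 56.1 ± 1.05 to 48.7 ± 3.16 CPM (log2 fold change -0.20, adjusted p = 0.044). That call was lost with DESeq2, with no filter, without either empty replicate (-0.22 and -0.182) and without overexpression replicate 2 (-0.134).

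Of 5 GTPases listed as related to EEF2, 0 passed in edgeR, 0 had an unadjusted p under 0.05, and 0 passed with DESeq2 or limma. EFL1, a paralogue that acts in maturation of the large ribosomal subunit and also lies on chromosome 15, was at 32.8 ± 1.19 and 32.2 ± 0.11 CPM (log2 fold change -0.03, adjusted p = 0.813).

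Cytosolic elongation and release factors had 1 of 14 risen and 5 fallen, with a median of 0.00 (0.001). EEF1A2, a tissue-restricted form of the factor that brings aminoacyl-tRNA, fell from 96.9 ± 1.65 to 55.8 ± 2.98 CPM (log2 fold change -0.80, adjusted p = 4.53e-07). GSPT1, the release factor eRF3a, fell from 346 ± 25.4 to 218 ± 6.08 CPM (-0.67, adjusted p = 7.46e-07). EIF5A2 rose from 10.9 ± 0.12 to 22.6 ± 2.44 CPM (1.05, adjusted p = 3.91e-06).

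EIF5A2 is also a substrate of the hypusine pathway, which makes another residue found in a single kind of translation factor, eIF5A. There 2 of 4 tested genes rose and the others did not pass. DHPS, the deoxyhypusine synthase, rose from 40.3 ± 1.86 to 55.3 ± 7.14 CPM (log2 fold change 0.45, adjusted p = 0.00104).

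The Elongator complex modifies tRNA wobble uridines and, in yeast, receives electrons from the DPH3 homologue. Of its list 3 of 9 rose and 1 fell. CYB5R1, a cytochrome b5 reductase whose yeast counterpart reduces Dph3, rose from 24.2 ± 0.74 to 44.9 ± 2.88 CPM (log2 fold change 0.89, adjusted p = 1.24e-06). CYB5R3, the more abundant reductase of the list, was at 223 ± 1.76 and 246 ± 5.10 CPM and did not pass (0.14, adjusted p = 0.0516). ELP3, the catalytic subunit, rose from 34.6 ± 0.50 to 49.2 ± 1.21 CPM (0.51, adjusted p = 0.000105). ELP6, an accessory subunit, rose from 47.0 ± 2.23 to 55.4 ± 2.89 CPM (0.24, adjusted p = 0.0227). This call was lost without empty replicate 1 (0.193) or overexpression replicate 2 (0.188), with DESeq2 and on log2(TPM + 0.1).

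Iron-sulfur assembly, on which the DPH1 and DPH2 enzyme depends, went both ways. In the cytosolic list 1 of 9 rose and 3 fell. CIAO2A rose from 51.2 ± 1.17 to 76.3 ± 0.16 CPM (log2 fold change 0.58, adjusted p = 1.22e-05), while CIAPIN1, an electron carrier of cluster assembly, fell from 100 ± 5.16 to 75.4 ± 2.80 CPM (-0.41, adjusted p = 0.000219). CIAO3 fell from 26.5 ± 0.95 to 18.8 ± 0.83 CPM (-0.49, adjusted p = 0.000699). In the mitochondrial list 5 of 14 rose and 3 fell. NFS1, the cysteine desulfurase, fell from 52.2 ± 3.90 to 37.3 ± 3.25 CPM (-0.48, adjusted p = 0.000435). ISCA2, a late-acting assembly factor, rose from 17.2 ± 0.07 to 26.1 ± 0.41 CPM (0.60, adjusted p = 0.00012).

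In the supply of S-adenosylmethionine, used by DPH1 with DPH2 and by DPH5, 1 of 9 tested genes rose and 3 fell. MTRR, which reactivates methionine synthase, fell from 150 ± 1.06 to 88.6 ± 5.86 CPM (log2 fold change -0.76, adjusted p = 3.4e-07). AHCY, which clears S-adenosylhomocysteine, fell from 241 ± 8.75 to 146 ± 9.61 CPM (-0.72, adjusted p = 3.99e-07). MAT2B, a regulatory subunit of the synthetase, rose from 75.7 ± 0.50 to 103 ± 4.75 CPM (0.44 (0.445), adjusted p = 8.03e-05).

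Genes for the entry of the toxins that act on diphthamide had 1 of 9 risen and 4 fallen. HBEGF, the precursor of which is the diphtheria toxin receptor, was counted 963 and 948 times in empty cells and 1120 and 1305 times in overexpressing cells and did not pass (log2 fold change 0.09, adjusted p = 0.477). CD9, a tetraspanin associated with that receptor, fell from 70.6 ± 0.64 to 50.5 ± 1.38 CPM (-0.48, adjusted p = 7.53e-05). LRP1, the receptor of Pseudomonas exotoxin A, fell from 235 ± 1.20 to 173 ± 21.3 CPM (-0.44, adjusted p = 0.00024). TXNRD1, thioredoxin reductase, rose from 650 ± 7.47 to 940 ± 44.2 CPM (0.53, adjusted p = 2.29e-06). LRP1B had at most 1 count per library and was not tested.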

How the data were processed

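RNA-seq of 4 Hs578T libraries, 2 empty and 2 overexpressing TFCP2L1, was grouped by the treatment label. Per the labels, libraries were made from Trizol RNA. The authors deposited estimated counts per gene, not normalized, and TPM per library, per the file headers. The authors' deposited fold change (a ratio), log2 fold change and p-value come from DESeq2, per the workbook's name. The submitters' processing notes name Bowtie 0.12.2 and a mouse build, which does not go with the human gene IDs, so aligner, counter, strand use and annotation are not given in the sources used here.

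Estimated counts were rounded, then tested by the quasi-likelihood method of edgeR 4.0.16 under R 4.3.3 (robust glmQLFit, glmQLFTest, TMM factors, filterByExpr with a minimum count of 10), with Benjamini-Hochberg adjustment over 16544 genes and a threshold of 0.05. CPM use TMM-scaled library sizes, and the SE was derived from the log2 fold change and its F statistic. The common biological coefficient of variation was 0.0592. Intervals of count ratios are exact (95%) and, like the depth, cover counting error only. With 2 libraries a group, no exact permutation test over libraries was made.

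Gene positions are from GENCODE 29, matched by gene ID, and promoters from RefSeq; protein sequences were not used here. Alternatives were other scalings, filters, DESeq2 1.42.0, limma 3.58.1 (voom, and log2 of TPM plus 0.1), a threshold of 0.01 and leaving out each library. On simulated data for this comparison over 16544 genes, 30% of 50 genes changed 1.25-fold and 88% of 50 changed 4-fold were recovered, with 33 false calls.

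The 7 genes, the lists and the tests were chosen with earlier results of these data known. Genes named are the 7; TFCP2L1; up to 3 passing members per list with the smallest p, besides DNAJC24, EEF2K, DHPS and EFL1; genes overlapping the 7 or sharing their start within 1 kb; the 10 neighbours of DPH6, and the largest fold change beside each other gene; and the 5 genes most like DPH6. The markers of the cell line and of other cells (VIM, FN1, CDH2, AXL, ZEB1, ESR1, PGR, CDH1, EPCAM, ERBB2, PTPRC, CD3E, ALB, PECAM1) come from the marker list. Named outside these rules, after their values were seen, are DPH3P1, HBEGF, LRP1B, MAT1A, RPS6KB1, CYB5R3, ANPEP, IGDCC4, CORO2B, IBA57, ST6GALNAC5, F11R and IMMP1L. A gene that the rule names is not reported here.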

Additional observations from a re-analysis of the deposited data

How the results depend on the processing

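The log2 fold change of DPH6 was -3.30 to -3.38 over leaving out each library and -3.31 to -3.37 over the scalings, filters, DESeq2 and limma-voom, but -2.44 on log2(TPM + 0.1). Likewise its ratio of overexpression to empty was 0.183 in TPM and 0.0985 in CPM. The smaller implied length in overexpressing cells restates this gap, since that length is computed from the counts per TPM. Of the 7 genes, 5 passed, against 3 with DESeq2, 3 at an adjusted p under 0.01, and 3 to 5 when a library was left out. DPH1 and DPH5 lost their calls with DESeq2, at the stricter threshold and without empty replicate 1, and DPH1 also without empty replicate 2, with no filter and on TPM, where DPH2 passed. Over all genes 7856 passed, 5175 on TPM, and 5953 to 7858 with a library left out, where the lone library of a group is assumed to vary like the others. Of the 68 neighbours 37 passed, and 22 on TPM. The 36 passing genes of the lists stayed within 1.5 times that number under each alternative. IBA57, at -0.155 by counts without passing, was at 0.81 and passed on TPM. Of 148 single genes, limma on TPM lost 24 calls and DESeq2 lost 19. No paired analysis was possible because the labels number the libraries 1 and 2 in the empty and 3 and 4 in the overexpression group. With 2 libraries a group, small differences such as those of DPH2 and DPH3 are not resolved at this depth.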

Other observations

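The shift in implied length that accompanied DPH6 was seen in 16 other genes at least as strongly, 4 of which fell by the count test, 3 of which rose and 9 of which did not pass. The lowest shifts on the log2 scale were those of ST6GALNAC5 (-1.70), a sialyltransferase, and IMMP1L (-1.36), a mitochondrial inner membrane peptidase subunit. F11R, a junctional adhesion molecule, had a shift of -1.15 with a log2 fold change of -2.03 by counts, the only one of the 16 with a log2 fold change of -1 or below. IBA57, an iron-sulfur assembly factor of the mitochondrial list, had a shift of -1.005. Its counts of 244 and 229 in empty cells and 226 and 281 in overexpressing cells overlapped, while its TPM went from 2.41 and 2.63 to 4.12 and 4.89. Which transcripts of these genes differed was not tested.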
